A study of Mus musculus with 3 samples.

Results

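The IL-6 cytokine family was examined through 10 genes: the ligand genes Lif, Osm and Il11, the receptor subunit genes Il6st, Il6ra, Osmr, Lifr and Il11ra1, the transcription factor gene Stat3 and the inhibitor gene Socs3. The genes were chosen by symbol, and all 10 were found among 21881 gene symbols. Total RNA had been sequenced from 3 snap-frozen mammary tumours of NDL(UCD), a transplantable mouse tumour line, each grown in a different female mouse. The labels give the strain as FVB/N, and the hosts as FVB/NJ females of 6 to 8 weeks whose mammary fat pads had not been cleared, so host gland, fat, vessels and immune cells can be part of a sample. The line belongs to an ErbB2 model, in which an activated form of Neu, the rat Erbb2, is known to be expressed from a mammary tumour virus promoter. All tumours come from this line, and there is no normal gland, treated tumour or other line to set them against. Levels are therefore compared between genes and over the 3 tumours.

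Cytokines of this family act through receptors that share the signalling subunit gp130, the product of Il6st. IL-6 and IL-11 first bind their own subunits, encoded by Il6ra and Il11ra1, and the complex then joins gp130. LIF joins gp130 to the subunit encoded by Lifr, and mouse oncostatin M (OSM) joins it mainly to the subunit encoded by Osmr. Bound Janus kinases phosphorylate STAT3, which enters the nucleus and switches on targets that include Socs3, whose product blocks the receptor. In the mammary gland, LIF and STAT3 are known for driving cell death and the acute phase response when milk removal stops.

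Levels are FPKM, fragments scaled to transcript length and library total, so genes can be set side by side. This scaling does not remove an effect of GC content, described below. Each deposited value carries an interval that covers counting error, and from these intervals tumours 1, 2 and 3 held about 11.7, 12.4 and 13.4 M (1e6) fragments. Luminal epithelial markers (Krt8, Krt18, Epcam, Cdh1 and Erbb2) were above 1 FPKM in 5 of 5 cases, in tissue labelled mammary tumour. So were 54.2% of all symbols tested. Of 4 basal markers, Krt14 and Acta2 were above 1 FPKM as well, and Krt5 and Trp63 were below it. Erbb2 is also the gene of the model's driver, so its level does not speak for luminal cells alone. The libraries differed in how FPKM followed the GC content of a transcript. At a GC content of 40% the typical gene lay 0.69 log2 units above its 3-tumour mean in tumour 1 and 0.55 below it in tumour 3 (-0.55), whereas at 58% the values were -0.45 and 0.33. The trend in tumour 2 stayed nearer to 0, at -0.12 and 0.12. For most differences between tumours, values after removal of each tumour's GC and length trends are given as well. The removal keeps each gene's mean log2 level. A GC effect shared by all tumours therefore stays in the differences between genes.

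Among the ligand genes, Lif was the only one of the 3 above 1 FPKM. Lif, which encodes leukaemia inhibitory factor, was at 1.70, 2.34 and 2.52 FPKM in tumours 1, 2 and 3, a mean of 2.19 ± 0.43 (SD, n = 3). Limma called its level above 1 FPKM (Benjamini-Hochberg adjusted p = 0.0050), a call that 54.2% of all 18028 symbols tested received. The call was lost without tumour 2 (adjusted p = 0.081) and without tumour 3 (adjusted p = 0.052). With the trends removed the 3 tumours were nearly level, at 2.23, 2.15 and 2.10 FPKM.

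Osm, which encodes oncostatin M, a cytokine made mainly by myeloid cells and T cells, was at 0.140, 0.311 and 0.539 FPKM in tumours 1, 2 and 3. These values rested on about 7, 15 and 29 fragments, and the deposited intervals of tumours 1 and 3 did not overlap, at 0.0341 to 0.245 FPKM and 0.339 to 0.740 FPKM. Both intervals cover counting error only. The mean, 0.330 ± 0.201 FPKM, was called below 1 FPKM (limma adjusted p = 0.0032), as were 32.5% of all symbols tested. It was not separated from 1 FPKM without tumour 2 (adjusted p = 0.095) or when each tumour was rescaled to the same FPKM total (0.64). After removal of the trends Osm was at 0.236, 0.275 and 0.400 FPKM. In the same tumours the summed level of 5 macrophage markers (Cd68, Csf1r, Adgre1, Lyz2 and C1qa, all 5 above 1 FPKM) was 215, 384 and 826 FPKM, and 268, 353 and 731 FPKM with the trends removed. That of 4 neutrophil markers, 2 of them above 1 FPKM and Mpo listed at 0 in tumour 1, was 4.71, 12.9 and 28.1 FPKM, and 4.41, 12.2 and 31.8 FPKM with the trends removed. That of 4 T-cell markers, 1 of them above 1 FPKM, was 1.62, 3.43 and 6.995 FPKM, and 1.35, 3.58 and 9.42 FPKM with the trends removed. Osm and the sums of these lists were all lowest in tumour 1 and highest in tumour 3. The endothelial sum had this order as deposited (14.1, 22.4 and 22.8 FPKM) but not with the trends removed (18.1, 20.6 and 19.2 FPKM). The macrophage, neutrophil and T-cell sums rested mainly on 1 gene each. As deposited in tumour 3, Lyz2 gave 602 of 826 FPKM, S100a8 21.6 of 28.1 FPKM and Cd3g 4.87 of 6.995 FPKM. All 5 macrophage markers rose from tumour 1 to tumour 3, also with the trends removed, but single markers of the other lists did not all follow. As deposited, the T-cell marker Cd8a and the neutrophil markers Mpo and Cxcr2 were highest in tumour 2. With the trends removed the T-cell marker Cd4 was lowest in tumour 2 and Mpo was highest in tumour 1. The part of any of these cells in the level of Osm was not tested. In bulk tissue, fewer cells of a type and less RNA per cell cannot be told apart.

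Il11, which encodes interleukin 11, was at 0.0585, 0.0203 and 0.0803 FPKM in tumours 1, 2 and 3, from about 3, 1 and 4 fragments. Its intervals all reached 0 and overlapped, and its level was called below 1 FPKM (limma adjusted p = 1.1e-06). Lif and Osm are neighbours on chromosome 11 (mm9), with 16.5 kb between them. On the log2(FPKM + 0.1) scale Lif exceeded Osm by 2.91, 2.57 and 2.03 units in tumours 1, 2 and 3, a mean of 2.51 ± 0.44. It exceeded Il11 by 3.90 ± 0.42 units on the same scale, a value that depends on the pseudocount (5.24 with 0.01 and 1.59 with 1). Both were positive in 3 of 3 tumours, and Lif made up 89.6%, 87.6% and 80.3% of the summed FPKM of the 3 ligand genes.

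**Figure D1:**
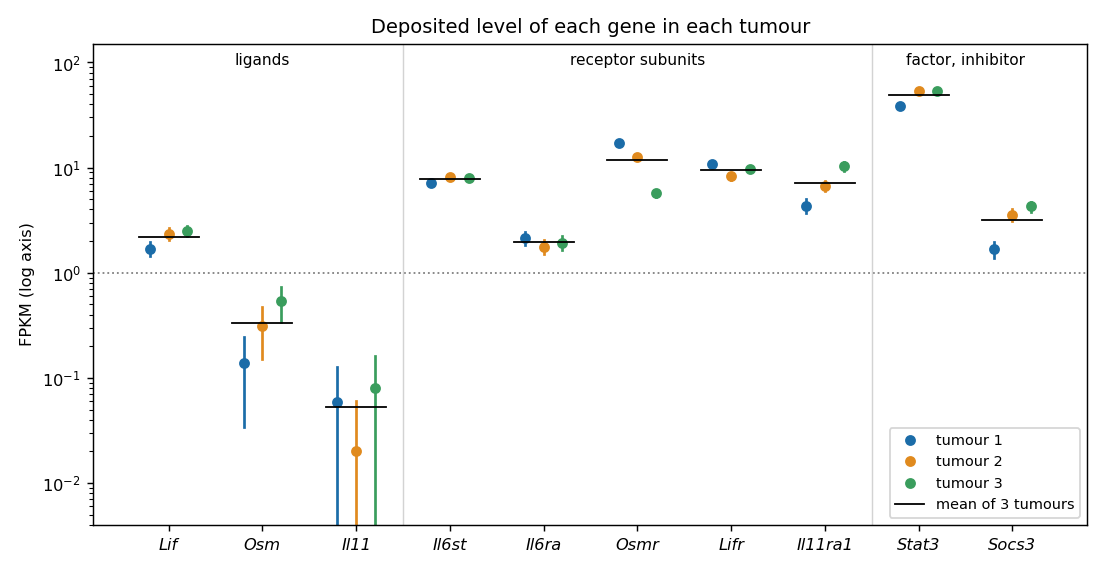
FPKM (log axis) of the 10 genes in each of the 3 tumours, with the deposited interval as a vertical line (cut at the axis where it reaches 0) and the 3-tumour mean as a horizontal bar. Only Osm and Il11 lie below the dotted line at 1 FPKM, and Stat3 lies above all other genes in every tumour.

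All 5 receptor subunit genes were called above 1 FPKM, as were 54.2% of all symbols tested. The gp130 gene Il6st (mm9 chromosome 13, 113254278 to 113297068) was the steadiest, at 7.21, 8.08 and 7.96 FPKM in tumours 1, 2 and 3, a mean of 7.75 ± 0.47 FPKM (limma adjusted p = 3.2e-06 against 1 FPKM). Its highest value was 1.12 times its lowest, and 1.21 times with the trends removed. Il6ra, which encodes the subunit that binds IL-6, was the lowest of the receptor genes, at 2.15, 1.78 and 1.94 FPKM. Its mean was 1.96 ± 0.19 FPKM (limma adjusted p = 0.0091, and 0.059 without tumour 2). Removing the trends gave 2.39, 1.76 and 1.76 FPKM for Il6ra. On the log2(FPKM + 0.1) scale Il6st exceeded Il6ra by 1.70, 2.12 and 1.98 units, a mean of 1.94 ± 0.22 or 3.82-fold.

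Lifr, the LIF receptor gene, was at 10.7, 8.30 and 9.71 FPKM in tumours 1, 2 and 3, a mean of 9.58 ± 1.22 (limma adjusted p = 1.8e-06). Tumour 1 was highest as deposited, but tumour 3 was highest with the trends removed, at 8.31, 8.70 and 11.9 FPKM. Il6st minus Lifr was -0.57, -0.04 and -0.28 log2 units, negative in 3 of 3 tumours, a mean of -0.30 ± 0.26. The smallest of these gaps, in tumour 2, lay within the deposited intervals of Il6st (7.62 to 8.55 FPKM) and Lifr (7.68 to 8.92 FPKM), which overlapped.

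Il11ra1, which encodes the subunit that binds IL-11, was at 4.36, 6.75 and 10.3 FPKM in tumours 1, 2 and 3, a mean of 7.14 ± 2.99 (limma adjusted p = 2.4e-05). The spread narrowed with the trends removed, to 6.12, 6.15 and 8.07 FPKM. The near-identical gene Il11ra2, annotated at 3 places of mm9 chromosome 4, was listed at a sum of 0.0226, 2.7e-08 and 0.0222 FPKM. The sources used here do not give how fragments that match both genes were shared, and the split between them is uncertain. The locus of Il11ra1 (mm9 chromosome 4, 41707316 to 41716346) also overlaps that of Ccl27a by 4 bp, which was at 0.516 ± 0.257 FPKM. Il6ra minus Il11ra1 was -0.98, -1.87 and -2.35 log2 units, a mean of -1.74 ± 0.69, so that the IL-6 subunit was lower in 3 of 3 tumours.

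Osmr, which encodes the OSM partner subunit, varied most among the receptor genes. It was at 17.3, 12.6 and 5.68 FPKM in tumours 1, 2 and 3, a mean of 11.8 ± 5.84 (limma adjusted p = 1.5e-05 against 1 FPKM). The deposited intervals were 16.6 to 18.0, 12.0 to 13.2 and 5.28 to 6.07 FPKM, so no pair of tumours overlapped. Such intervals cover counting error only, against which 91.6% of all 11058 genes tested differed between tumours (Cochran's Q adjusted p under 0.05). With the trends removed the values were 15.6, 12.2 and 6.46 FPKM, and the highest tumour stood 2.42 times above the lowest in place of 3.04 times. In the same tumours the summed level of the 5 luminal markers was 901, 1254 and 1180 FPKM as deposited, and 1247, 1146 and 926 FPKM with the trends removed. With the trends removed Epcam, Cdh1 and Erbb2 were highest in tumour 1, and Krt8 and Krt18 in tumour 2. The fibroblast sum, from 5 markers all above 1 FPKM, was 164, 287 and 255 FPKM, and 193, 272 and 226 FPKM with the trends removed. The adipocyte sum, from 4 markers of which 2 were above 1 FPKM, was 59.4, 43.6 and 189.8 FPKM, and 45.2, 44.0 and 248 FPKM with the trends removed, so tumour 3, where Osmr was lowest, stood apart. The macrophage sum given above was also highest in tumour 3. The part of cell make-up in the level of Osmr was not tested.

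Osmr and Lifr lie on mm9 chromosome 15 with 255.3 kb between them, but their order differed between tumours. Osmr minus Lifr was 0.68 and 0.59 log2 units in tumours 1 and 2 and -0.76 in tumour 3, a mean of 0.17 ± 0.81. Il6st minus Osmr also changed sign, at -1.25, -0.63 and 0.48 log2 units, a mean of -0.47 ± 0.88. Neither difference was larger than its spread over tumours. The 4 partner subunit genes (Il6ra, Osmr, Lifr and Il11ra1) summed to 34.5, 29.4 and 27.6 FPKM, which was 4.79, 3.64 and 3.47 times the level of Il6st, and 4.74, 3.54 and 3.40 times with the trends removed. This sum was chosen after the values were seen. Osmr was the largest part of the 5 receptor genes in tumours 1 and 2, at 41.4% and 33.5% of their summed FPKM, but held 15.96% in tumour 3, where Il11ra1 held 28.95% and Lifr 27.3%. With the trends removed the share of Osmr was 39.8%, 33.1% and 17.7%, and in tumour 3 Lifr led with 32.7%.

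**Figure D2:**
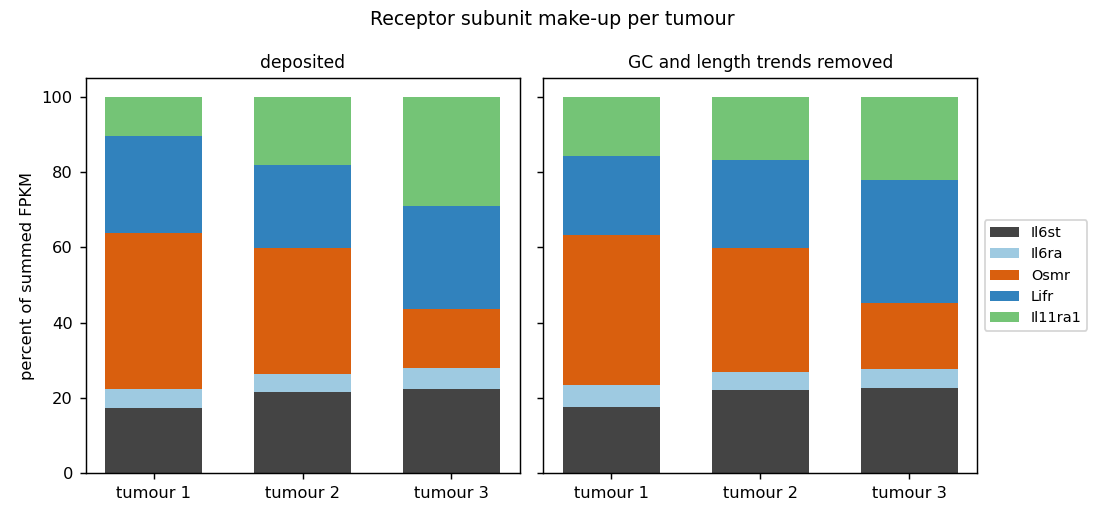
Share (percent) of each of the 5 receptor subunit genes in their summed FPKM per tumour, as deposited on the left and with GC and length trends removed on the right. The share of Osmr is lowest in tumour 3 in both panels, at 15.96% and 17.7%, while Il6ra stays between 4.74% and 6.08%.

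Stat3 was the highest of the 10 genes in every tumour. It lay at 38.4, 53.6 and 53.7 FPKM in tumours 1, 2 and 3, a mean of 48.6 ± 8.81 (limma adjusted p = 1.1e-07 against 1 FPKM), and its locus is on mm9 chromosome 11, from 100748124 to 100800825. This placed it at percentiles 94.9, 95.7 and 95.5 of the 18028 symbols listed above 0 in at least 1 tumour. Tumour 1 was the low one as deposited, with an interval of 37.3 to 39.5 FPKM, and with the trends removed the tumours lay at 46.9, 50.6 and 46.6 FPKM. Stat3 exceeded Il6st by 2.40, 2.71 and 2.74 log2 units, a mean of 2.62 ± 0.19 or 6.14-fold. Stat5a, the next gene on the chromosome at a distance of 1.6 kb, was at 9.39 ± 3.73 FPKM.

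Socs3, the feedback inhibitor gene that STAT3 is known to induce, was at 1.67, 3.56 and 4.27 FPKM in tumours 1, 2 and 3, a mean of 3.17 ± 1.34 (mm9 chromosome 11, 117827401 to 117830680). Tumour 1 was the low one, and its interval, 1.37 to 1.97 FPKM, did not reach those of tumours 2 and 3. As for Osmr, the intervals cover counting error only. With the trends removed the values were 2.42, 3.22 and 3.28 FPKM. Its level was called above 1 FPKM (limma adjusted p = 0.0018), but not without tumour 2 (adjusted p = 0.11) or without tumour 3 (adjusted p = 0.084). Stat3 exceeded Socs3 by 4.44, 3.88 and 3.62 log2 units, a mean of 3.98 ± 0.42, and Socs3 amounted to 4.35%, 6.63% and 7.96% of the FPKM of Stat3.

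The 250 bases before the start of Socs3 are shown because they hold the palindrome TTCNNNGAA to which STAT dimers bind, while the same stretch of Osmr, the receptor gene that varied most between tumours, holds none. Both are from the RefSeq promoter table on GRCm38.p6, both lie on the minus strand, and they are written 5′ to 3′ with the palindrome in capitals.
Socs3, chr11:117969367-117969616: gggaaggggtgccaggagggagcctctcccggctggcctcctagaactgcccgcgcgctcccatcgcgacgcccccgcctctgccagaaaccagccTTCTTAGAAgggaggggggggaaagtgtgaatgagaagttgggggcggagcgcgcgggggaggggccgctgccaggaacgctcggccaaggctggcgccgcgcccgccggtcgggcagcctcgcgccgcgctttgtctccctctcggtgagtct
Osmr, chr15:6874314-6874563: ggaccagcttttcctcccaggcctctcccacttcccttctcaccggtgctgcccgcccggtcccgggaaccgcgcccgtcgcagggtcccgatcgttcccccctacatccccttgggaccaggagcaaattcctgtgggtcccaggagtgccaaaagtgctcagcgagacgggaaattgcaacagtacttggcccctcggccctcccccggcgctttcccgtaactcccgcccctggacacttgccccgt

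The palindrome of Socs3 begins 154 bases before the start. Since TTCNNNGAA reads alike on both strands, 1 search covers both. Of the 10 genes 9 were matched in the table, and Socs3 was the only one of these with a match in any window. That is 11.1% of the 9 genes, and 8.13% of all 27025 genes in that annotation hold the palindrome in any window of the same length. The windows of Socs3 and Osmr have GC contents of 71.6% and 66.0%. A match of letters is a description and does not show binding.

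By level, the 10 genes ran Stat3, Osmr, Lifr, Il6st, Il11ra1, Socs3, Lif, Il6ra, Osm and Il11. The ranges over tumours did not overlap between Stat3 and Osmr, Lifr and Il6st, Il11ra1 and Socs3, Il6ra and Osm, or Osm and Il11. Some gaps were small. Lifr and Il6st came as near as 8.30 and 8.08 FPKM (both tumour 2). Il11ra1 in tumour 1 and Socs3 in tumour 3 were at 4.36 and 4.27 FPKM, and Osm in tumour 1 and Il11 in tumour 3 at 0.140 and 0.0803 FPKM. At these points the deposited intervals overlapped, so these gaps between ranges are not separated from counting error. The ranges overlapped between Osmr and Lifr, Il6st and Il11ra1, Socs3 and Lif, and Lif and Il6ra. The order within these overlapping pairs is not separated from the spread between tumours as deposited. With the trends removed Socs3 and Lif no longer overlapped (2.42 to 3.28 against 2.10 to 2.23 FPKM). Of the 10 genes 8 were called above 1 FPKM, where 54.2% of all symbols tested were, and 2 below it, where 32.5% were. Without tumour 2 the count above was 5, as Lif, Il6ra and Socs3 lost their calls, and the count below was 1, as Osm lost its call. For the differences between genes given above, flipping signs over 3 tumours in an exact permutation test, two-sided, cannot give a p under 0.25. This was the p of each of them that kept its sign in 3 of 3 tumours, 0.31 after Benjamini-Hochberg adjustment over the 10 differences computed. Il6st minus Osmr and Osmr minus Lifr, whose sign changed, had an exact p of 0.50 and 1.00.

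Differences between tumours were tested against the deposited counting error with Cochran's Q wherever the mean reached 1 FPKM, as it did for 8 of the 10 genes. Osmr, Il11ra1 and Socs3 passed at an adjusted p under 0.05 and a ratio of at least 2 between the highest and lowest tumour, at ratios of 3.04, 2.36 and 2.56. The same rule called 32.5% of all 11058 genes tested, so 3 of 8 is near the background. Counting error is small at this depth, and without the demand on the ratio 91.6% of all genes passed. With the trends removed Osmr alone passed among these 8 genes, at a ratio of 2.42, against 17.1% of all genes. Il11ra1 and Socs3 then had ratios of 1.32 and 1.35. As deposited, Osmr passed without tumour 1 or tumour 2 but not without tumour 3, where its ratio was 1.37. Also as deposited, Il11ra1 did not pass without tumour 1 or without tumour 3 (ratios of 1.53 and 1.55), and Socs3 did not pass without tumour 1 (1.20).

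**Figure D3:**
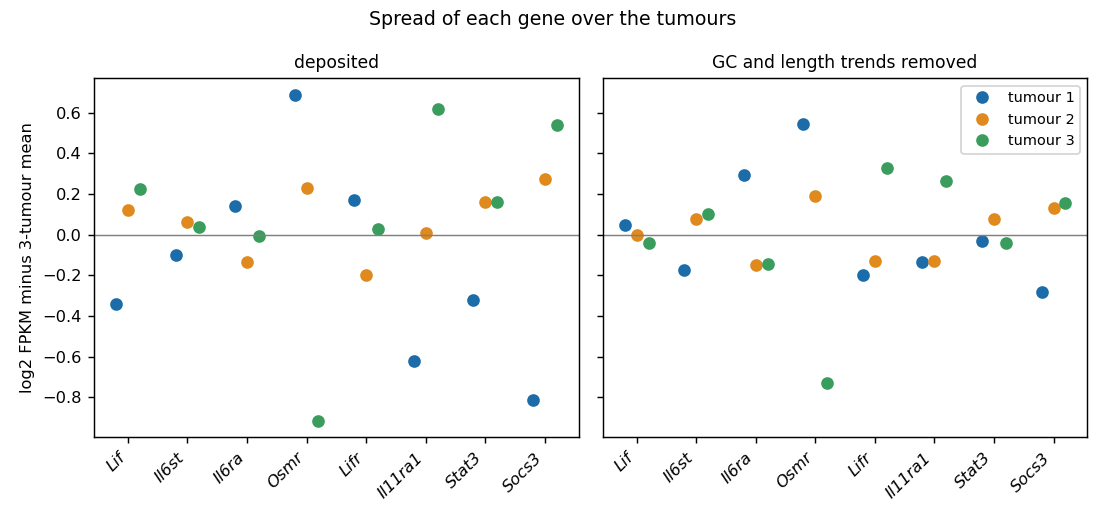
Log2 FPKM minus the 3-tumour mean for the 8 genes that averaged 1 FPKM or more, as deposited on the left and with GC and length trends removed on the right, with a point per tumour. The points of Il11ra1, Socs3, Lif and Stat3 draw together on the right, while those of Osmr stay apart, with a ratio of 2.42 between highest and lowest tumour. Those of Il6ra, Il6st and Lifr spread more on the right, at ratios of 1.36, 1.21 and 1.44 against 1.21, 1.12 and 1.29 on the left.

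The transcripts of the 8 genes spread over the GC range in which the trends of the tumours cross. Lifr and Osmr had the lowest GC contents, at 44.4% and 46.0%, and Il11ra1 and Socs3 the highest, at 54.7% and 58.7%. The GC-rich genes were lowest in tumour 1 and highest in tumour 3, on the same side as the trend of all genes. Osmr was on the side of the trend as well in each tumour. The trend at a GC content of 46% was 0.06, 0.06 and -0.12 log2 units in tumours 1, 2 and 3. Il6ra and Lifr did not follow the order of the trend. Il6ra, at 50.4% GC, was highest in tumour 1 and lowest in tumour 2 as deposited. At a GC content of 50% the trend was -0.26, 0.10 and 0.15 log2 units in tumours 1, 2 and 3. Lifr was also lowest in tumour 2 as deposited, while the trend at 44% was 0.26, 0.02 and -0.29 log2 units.

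**Figure D4:**
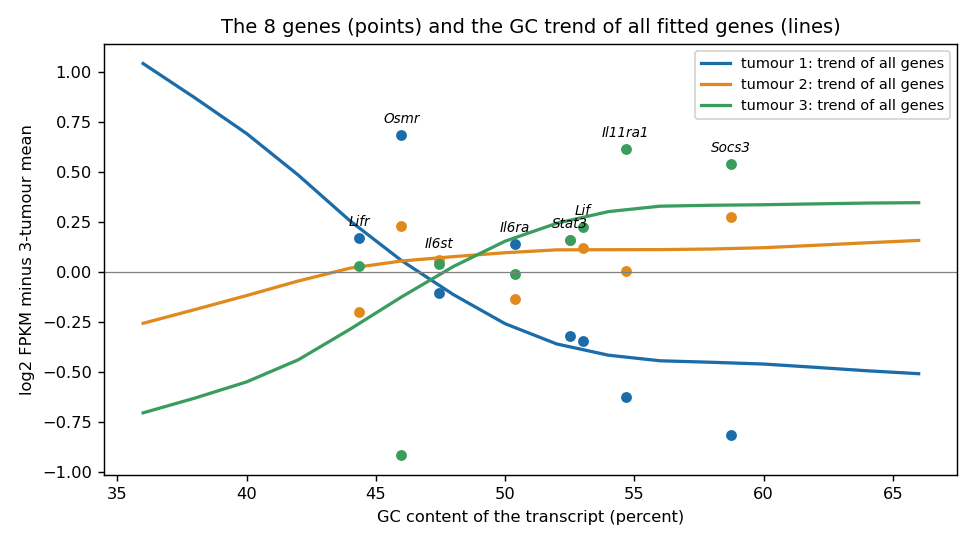
Lines give, per tumour, the lowess trend of log2 FPKM minus the 3-tumour mean against the GC content of the transcript (percent) over 10845 genes, and points give the 8 genes in each tumour. Socs3 and Il11ra1, at 58.7% and 54.7% GC, lie on the side of the trends. Osmr, at 46.0%, lies further from 0 than the trends do there in each tumour. Il6ra, at 50.4%, is highest in tumour 1, where the trend is lowest.

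Over the 3 tumours, the pathway gene whose pattern was most like that of Osmr was Socs2, an inhibitor gene, at 107, 73.0 and 33.3 FPKM. The mean absolute difference of their log2 deviations was 0.042 as deposited, the smallest among 57 genes, and 0.034 with the trends removed, again the smallest, where Socs2 was at 96.1, 70.5 and 38.4 FPKM. Jak2, Ptpn2, Pias2 and Pik3r1 also fell from tumour 1 to tumour 3, as deposited and with the trends removed. For Socs3 the nearest gene was Fos in both cases, at 0.046 and 0.015 log2 units. As deposited, the nearest genes were Ctsl for Stat3 (0.025), Stat3 for Lif (0.035), Mcl1 for Il6st (0.023) and Ptpn6 for Il11ra1 (0.022), while Lifr and Il6ra were nearest to each other (0.046). These 6 genes had other neighbours with the trends removed. The points are 3 tumours that share each library's depth and base composition.

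The rest of the pathway was read from 5 lists, beside all symbols tested, of which 54.2% were above and 32.5% below 1 FPKM with a median of 2.44 FPKM. Of 9 other ligand and ligand-partner genes, Ctf1, which encodes cardiotrophin-1, was the only one above 1 FPKM, at 3.57 ± 0.96, above Lif on average. Cntf, which encodes ciliary neurotrophic factor, averaged 0.685 ± 0.553 FPKM, a level that limma did not separate from 1 FPKM. Il6 was listed at 0.0769 FPKM in tumour 1 and at 0 in tumours 2 and 3, and Il31 at 0 in all 3, while 5 of the 9 were below 1 FPKM. The list median was 0.182 FPKM. Of 4 other receptor genes none was above 1 FPKM and 3 were below. Cntfr, the receptor gene for ciliary neurotrophic factor, was at 1.08, 3.18 and 0.797 FPKM (1.61, 2.87 and 0.587 FPKM with the trends removed) and not separated from it, Il27ra was at 0.234 ± 0.235 FPKM, and Il31ra, a neighbour of Il6st, was at 0.00305 ± 0.00528 FPKM.

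The 13 kinase, STAT and adaptor genes had a median of 6.72 FPKM, with 12 above 1 FPKM and 1 below. Among the highest were Ptpn11, which encodes the phosphatase that gp130 recruits towards the ERK pathway, at 16.2 ± 3.35, and Stat6 at 15.6 ± 4.77 FPKM. The lowest were Jak3, the kinase of lymphoid receptors, at 1.73 ± 0.43 FPKM, and Stat4, at 0.243 ± 0.151 FPKM. Stat6 and Stat4 were both below Stat3 in every tumour. Jak1, the kinase on which gp130 mainly relies, was at 11.8, 13.0 and 8.16 FPKM, or 11.9, 12.5 and 8.46 FPKM with the trends removed, and was named here after its values were seen.

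Of 14 other negative regulators 11 were above 1 FPKM and none below, with a median of 5.02 FPKM. Socs2 was the highest at 71.1 ± 36.9 FPKM, above Socs3 in 3 of 3 tumours. The phosphatase genes Ptpn6 and Ptpn2 followed at 17.0 ± 7.36 and 15.3 ± 9.21 FPKM. Socs1, the closest relative of Socs3, and Cish were not separated from 1 FPKM, at 0.649 ± 0.328 and 0.904 ± 0.471 FPKM.

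Of 26 genes known as targets of STAT3 or of IL-6 family cytokines, 24 were above 1 FPKM and none below, with a median of 12.3 FPKM. Lcn2, which encodes the acute phase protein lipocalin 2, led at 2528 ± 450.3 FPKM, followed by Igfbp5, which encodes an insulin-like growth factor binding protein of the involuting gland, at 472 ± 34.0 and the cyclin gene Ccnd1 at 158 ± 47.9 FPKM. The acute phase genes Orm1 and Orm2 were not separated from 1 FPKM, at 0.897 ± 0.777 and 0.733 ± 0.264 FPKM. By Cochran's Q, 11 of 24 target genes that averaged 1 FPKM or more differed between tumours at a ratio of at least 2, and 7 of 24 with the trends removed, against 32.5% and 17.1% of all genes. These genes answer to other factors too, and their levels do not measure STAT3 activity, which rests on phosphorylation.

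**Figure D5:**
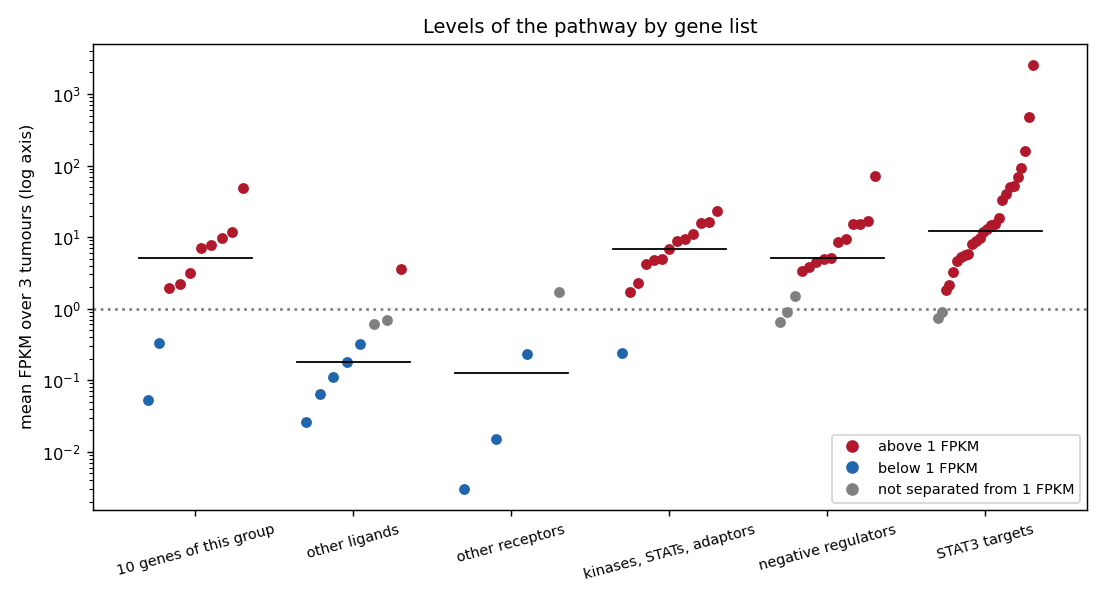
Mean FPKM over 3 tumours (log axis) of each gene in the 10-gene group and the 5 lists, coloured by its call against 1 FPKM (dotted line), with the list median as a bar; Il31, listed at 0, is not drawn. Other ligand and receptor genes lie mostly below the line, with medians of 0.182 and 0.125 FPKM, and kinases, inhibitors and targets mostly above it.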

How the data were processed

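Total RNA libraries of 3 tumours were depleted of ribosomal RNA and made with random priming from 50 ng of depleted RNA, per the labels' protocols. Per the file headers, the authors deposited FPKM for each gene together with an interval and a status. TopHat, Cufflinks and mm9 are named, without roles, in the submitters' processing notes, while the sources used here give no versions, annotation or strand setting. FPKM falls for all genes when a few transcripts take much of a library. Tumours were numbered in accession order, and whether libraries or lanes formed batches is not known. The marker Adgre1 was read under its older symbol Emr1.

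The 22310 rows gave 21881 symbols after 221 repeated symbols were summed, and 182 symbols whose status was not OK were left out. The 10 genes had status OK in all tumours and no low-value filter was applied to them. The distance from FPKM to the upper bound was taken as 2 standard errors. Implied fragments are the squared ratio of FPKM to standard error, are whole to within 0.02 in 71.7%, 72.5% and 70.5% of rows under 60 fragments (tumours 1, 2 and 3) and thus approximate, so no count test was run. They cover counting error only.

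Levels were tested with limma 3.58.1 (R 4.3.3) on log2((FPKM + 0.1)/(1 + 0.1)) over 18028 symbols, with trend and robust moderation. Differences between tumours used Cochran's Q with 2 degrees of freedom. P-values were adjusted over all genes tested, at 0.05. GC content and length came from the longest GENCODE vM21 transcript (98.2% of symbols), and their trends were removed per tumour by lowess with a span of 0.3, which keeps each gene's mean log2 level. Tests were checked on simulated data. Genes named are the 10, those of the contrasts, the 3 highest and 2 lowest of each list and the nearest genes in pattern. Jak1 and the partner sum were chosen after their values were seen, and Stat5a and Ccl27a for their position. Some genes that the rule would name, and 1 contrast, are not reported here. The genes, lists and tests were chosen with earlier results of these data known. Alternatives were other pseudocounts, scalings and filters, plain moderation, removal of trends and each tumour left out.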

Additional observations from a re-analysis of the deposited data

How the results depend on the processing

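No comparison of conditions, paired or unpaired, was possible because the tumours form a single group. Differences between genes were taken within each tumour. The count above 1 FPKM was 8, and 5 to 8 with a tumour left out. The count below was 2, and 1 to 2 with a tumour left out. It was 1 with an FPKM total of 1000000, which shifts the median gene up by 1.45 on the log2 scale and left Osm not separated from 1 FPKM (log2 -0.21, adjusted p = 0.64), and 0 when genes with a mean under 0.5 FPKM were left out, since that filter removes Osm and Il11. The count of genes that differed between tumours was 3, and 1 to 3 with a tumour left out, 1 with median-of-ratios scaling and 1 with trends removed. With pseudocount 1 the differences on the log2 scale were 1.57 for Il6st minus Il6ra, 1.26 for Lif minus Osm and 1.59 for Lif minus Il11, and the last was 5.24 with pseudocount 0.01, as these ligands lie near the pseudocount. With a tumour left out, Osmr minus Lifr ran from -0.09 to 0.64 (-0.085 without tumour 1 and -0.040 without tumour 2), so its sign rests on single tumours.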

Other observations

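Genes within 100 kb of these loci on mm9 differed widely in level. Next to Il6st, Il31ra and Ddx4 were each listed at 0 in all but 1 tumour, although Il6st was above 7 FPKM throughout. Around Il11, Rpl28, which encodes a ribosomal protein, reached 95.6 ± 21.7 FPKM, while Il11 stayed under 0.1 FPKM. These neighbours were chosen after their values were seen.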
